A study of Gallus gallus with 9 samples.

Results

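At 12 h of culture, explants given BMP4 had less RNA of several FGF ligands and of EYA2 and ISL2 than untreated explants. EYA2 and ISL2 belong to a list of progenitor genes. Of 9 tested markers of splanchnic mesoderm and the heart field, only GATA5 passed the test, and it was higher. More RNA was found of some BMP feedback genes, some contractile genes and a group of genes with diverse roles led by TH. The comparison takes 4 of the 9 arrays of the study. They are the BMP4-treated explants A and B and the untreated explants A and B, all 12 h after plating, the only time with more than 1 array per arm. The tissue was chick splanchnic mesoderm of the anterior heart field (AHF), dissected and cultured on a collagen drop in medium with fetal calf serum and chick embryo extract, which both arms share. The treated arm received human recombinant BMP4 at 200 ng/ml and the control arm no added agent, and no genotype or strain is given. The remaining arrays are single ones at 3 and 24 h in both arms and at 0 h untreated.

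BMP4 is a secreted ligand of the TGF-beta family. It binds serine/threonine kinase receptors that phosphorylate SMAD proteins, and these switch on target genes, among them inhibitors that feed back on the pathway. The anterior heart field is a pool of mesoderm progenitors beside the pharynx that adds heart muscle to the outflow tract and right ventricle and also gives rise to muscles of the head. FGF signals, relayed inside the cell by the kinase ERK, are known to keep such progenitors dividing, while BMP is known to promote their differentiation into heart muscle. The comparison addresses how BMP4 alters FGF signaling and heart muscle genes in these explants.

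Values are probe set signals, a linear brightness set by the MAS5 program, and log2 differences are of the signal plus 27.79. Fold differences are computed from these log2 differences. They are therefore smaller than the ratios of the printed signals, most so for dim genes. Of 38439 probe sets other than controls, 28329 were bright enough to be tested. At an adjusted p under 0.05 in limma, 174 of the 28329 were called, or 0.614%, with 110 higher (0.388%) and 64 lower (0.226%) in BMP4-treated explants. Errors after ± are standard errors from that fit, with n = 2 arrays per arm. Counted by gene, each through its brightest probe set, 120 of 11721 named genes were called (1.02%), 80 higher (0.683%) and 40 lower (0.341%). An exact permutation test of 2 arrays against 2 cannot go below p = 0.333, so the calls rest on the spread pooled across probe sets. Without a variance that follows signal, 0 probe sets were called by limma, and 2339 had an unadjusted p under 0.05.

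The arrays had medians of 67.3 to 67.7. Quantiles of the deposited values were nearly the same on all arrays, so like medians are no check of the samples. Over log2 signals of tested probe sets, r was 0.970 between the untreated pair and 0.972 between the BMP4 pair. For beta-actin, the 3′ control probe set divided by the 5′ one, which rises as RNA degrades, was 5.44 and 5.50 in the A arrays (untreated, then BMP4) and 3.80 and 4.26 in the B arrays. For GAPDH the same ratio was 1.57 and 1.81 in the A arrays and 1.54 and 1.40 in the B arrays. The part of RNA degradation in the results was not tested. Of 9 tested markers of splanchnic mesoderm and the heart field, ISL1, NKX2-5 and GATA5 gave signals of 4049 to 15369 on the 4 arrays, while TBX1 lay between 62.7 and 172 and GATA4 between 37.5 and 73.4. EPCAM and CLDN1, genes of epithelia rather than mesoderm, gave 19108 to 26132 on the 4 arrays. In bulk RNA, fewer cells of a type and less RNA per cell cannot be told apart.

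Genes of the sex chromosomes differed between the untreated arrays. The W chromosome is carried by female birds only, and 28 of 31 W-linked probe sets were higher in untreated B than in untreated A, by a median of 0.58 on the log2 scale. Between the BMP4 arrays their median difference was −0.0011. W-linked probe sets had a median BMP4 difference of −0.54, with 0 called, and 902 Z-linked probe sets one of 0.22. The A arrays alone gave −0.11 (W) and 0.10 (Z), and the B arrays alone −0.89 and 0.32. Of the 120 called genes 7 are Z-linked, all higher with BMP4: CFC1, PLPP1, VLDLR, RFESD, ALPK2, SELENOP1 and PIGG. Their differences ran from 0.81 to 1.73, and genes are called for a large difference. Of the 902 Z-linked probe sets 9 were called, beside 0.614% of all tested. Another probe set of SELENOP1 was at −0.55. The part of embryo sex in these calls was not tested.

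Arrays A and B gave the same direction for every called probe set. On all 174, both BMP4 arrays lay above, or both below, both untreated arrays. Of all tested probe sets 38% had groups that did not overlap, so this property alone is common. Genes are called because the arms differ much for their spread, so the gaps and within-arm differences that follow describe the called genes and are no further support. The gap between the nearest BMP4 and untreated arrays had a median of 1.33 for the 80 higher genes and 1.36 for the 40 lower genes on the log2 scale, and it exceeded 1 in 59 and 30 of them. The smallest gaps were 0.49 (SMAD6) and 0.58 (RRM2). The 2 arrays of 1 arm differed by a median of 0.20 and 0.17 (untreated and BMP4) in the higher genes and by 0.26 in each arm in the lower genes, against 0.30 and 0.29 over all tested probe sets. The widest disagreements within an arm were a 1.13 difference for PADI1 and 1.003 for FIBIN between the untreated arrays, and 1.02 for PENK, 0.98 for SOX9, 0.96 for ANXA8L1 and 0.93 for TMEM37 between the BMP4 arrays. Over all tested probe sets, the A difference and the B difference correlated with r = 0.214, and with r = 0.563 in the brightest 25%. With the letters crossed, untreated B taken from BMP4 A and untreated A from BMP4 B, r was 0.0900 over all tested probe sets. This is a description across probe sets, which are not independent.

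**Figure D1:**
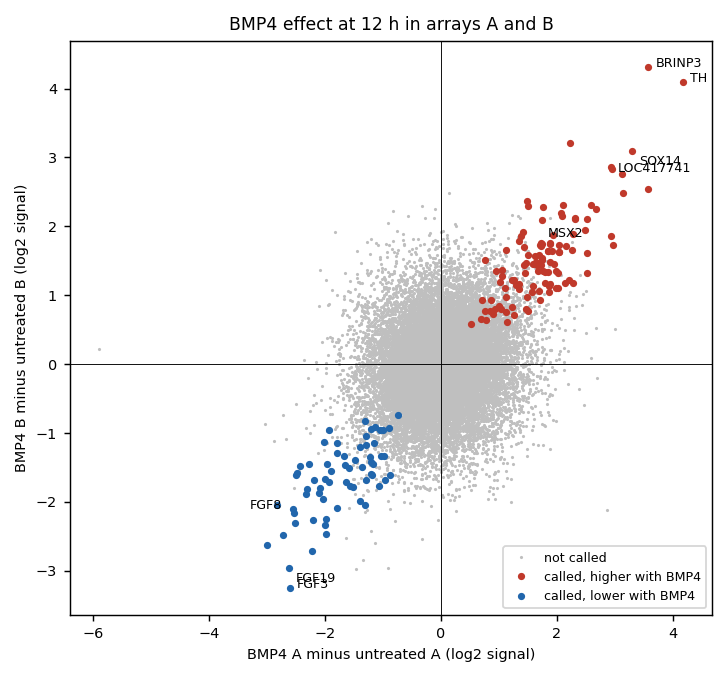
Each point is 1 of the 28329 tested probe sets, with the log2 difference BMP4 minus untreated of the A arrays on the horizontal axis and of the B arrays on the vertical axis. The 110 called higher probe sets (red) and the 64 called lower ones (blue) lie in the quadrants where A and B share a sign, while the probe sets that were not called (grey) spread around 0.

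Of 31 tested genes in a list of BMP targets, feedback inhibitors, ligands and receptors, 5 were called higher and 0 lower. The list had a median difference of 0.50 against −0.0028 over all named genes. Of all named genes 0.683% were called higher. This list and those below were drawn up with earlier results of these data in view. Their counts, medians and shares are therefore no independent evidence. The groups lay apart with BMP4 higher in 17 of the 31, against 20.8% of all named genes, and with BMP4 lower in 3. MSX2, a homeobox gene induced directly by BMP, gave 3648 and 3944 in untreated A and B and 11966 and 13192 with BMP4. The difference was 3.30-fold (1.72 ± 0.14, adjusted p = 0.000781). BAMBI, a decoy receptor that blocks BMP and TGF-beta receptors, gave 11430 and 12436 against 28952 and 27830, or 2.38-fold (1.25 ± 0.10). SMAD6, which inhibits BMP signaling inside the cell, rose least, from 13367 and 13562 to 19041 and 20390 (0.55 ± 0.10, adjusted p = 0.0468). BMPER, a secreted modulator of BMP ligands, gave 111 and 89.8 against 542 and 360 (1.88 ± 0.31). The homeobox gene DLX5 gave 7566 and 8832 against 13624 and 15054 (0.81 ± 0.13). In all 5 the arms did not overlap, with the narrowest gaps for SMAD6 (0.49) and DLX5 (0.62) on the log2 scale.

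Other members of the BMP list did not pass the test. SMAD7, a further intracellular inhibitor, gave 400.5 and 311 against 758 and 751 (1.04 ± 0.24, adjusted p = 0.111). MSX1 was at 0.75 ± 0.19 and ID4 at 0.54 ± 0.13. The ID genes encode inhibitors of helix-loop-helix factors and are direct BMP targets. ID1 was at 0.15 ± 0.15, ID2 at 0.17 ± 0.10 and ID3 at 0.52 ± 0.15. HAND1 was near the dim end in untreated explants, at 12.0 and 13.8, and gave 119 and 152 with BMP4 (1.9985 ± 0.42, adjusted p = 0.0805). The chick's own BMP4 RNA was at −1.02 ± 0.43, the receptor BMPR1B at −1.04 ± 0.44 and the antagonist NBL1 at −0.95 ± 0.25. Each had groups that did not overlap, and none passed the test. BMP4 RNA gave 135 and 121 untreated against 22.6 and 90.0, and another probe set of that gene was at 0.33.

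Of 13 tested FGF ligand genes, 4 were called lower with BMP4 and 0 higher, and they include the 2 lowest of all called genes. Over all named genes 0.341% were called lower. FGF3 gave 752 and 774 in untreated explants and 101 and 56.1 with BMP4, 7.62-fold lower (−2.93 ± 0.27, adjusted p = 0.000964). FGF19 gave 2344 and 1866 against 357 and 216, 6.92-fold lower (−2.79 ± 0.25). FGF8, a ligand of the pharyngeal region needed for outflow tract growth, gave 2155 and 1865 against 343 and 415, 5.02-fold lower (−2.33 ± 0.21). FGF18 fell from 1737 and 1431 to 381 and 369 (−1.99 ± 0.21). For these 4 ligands every BMP4 array lay under every untreated array by at least 1.83 on the log2 scale. The rest of the family was not called. FGF1 (−1.23 ± 0.33), FGF23 (−0.87), FGF4 (−0.69) and FGF10 (−0.70 ± 0.43) were below 0, and FGF7 was at 0.98 ± 0.41.

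Among 23 tested FGF receptor and ERK feedback genes, 1 was called higher and 2 lower, against 0.683% and 0.341% of all named genes. In 12 the groups lay apart with BMP4 lower, against 19.8% of all named genes. DUSP4, a phosphatase that switches off ERK, gave 1553 and 1956 against 655 and 629 (−1.40 ± 0.20, adjusted p = 0.0138). IL17RD, also called SEF, an inhibitor of FGF signaling, gave 1192 and 1490 against 596 and 443 (−1.33 ± 0.23). The others on the lower side fell short of the threshold. In all, 15 of the 23 were below 0, against 5911 of 11721 named genes. Among those not called were DUSP6 (−1.06 ± 0.20, adjusted p = 0.0564), the ERK-responsive factor ETV4 (−1.09 ± 0.22, adjusted p = 0.0634) and the inhibitor SPRY1 (−1.27 ± 0.28, adjusted p = 0.0932). SPRY2 was at −0.43 ± 0.18 and ETV5 at −0.34 ± 0.19. The receptors did not move alike. FGFR3 gave 617 and 674 against 2298 and 2153, 3.35-fold higher (1.74 ± 0.19, adjusted p = 0.00294), while FGFR1 was at −0.16 ± 0.17 and FGFR2 at 0.30 ± 0.20. FGFR3's 4 probe sets shared the sign but ran from 0.40 to 1.74. FGFBP1, which releases FGFs from the matrix, was outside the list and rose from 55.9 and 49.4 to 293 and 255 (1.90 ± 0.30).

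**Figure D2:**
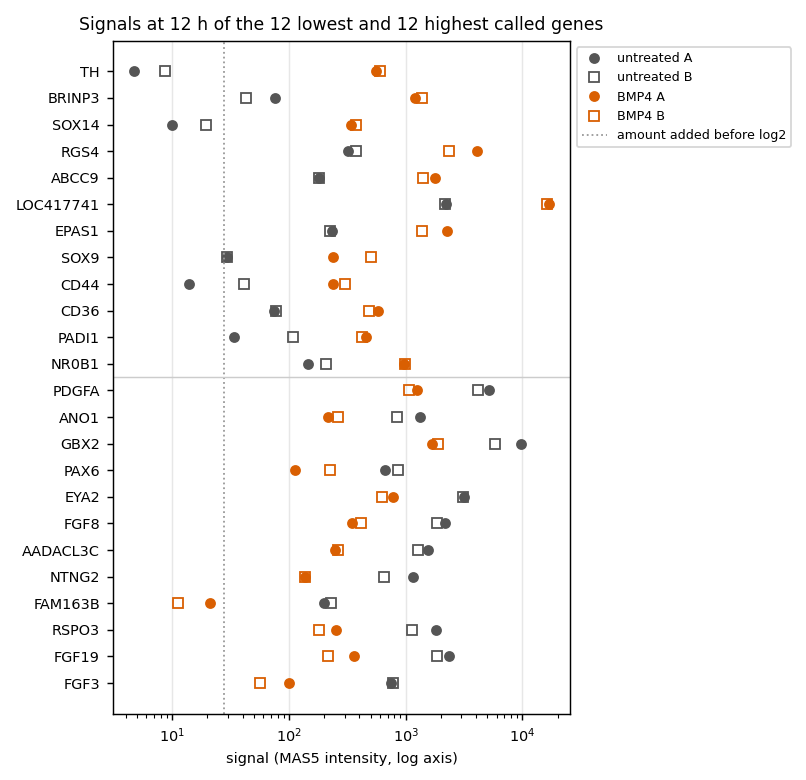
MAS5 signal on a log axis for the 12 called genes with the lowest and the 12 with the highest log2 difference, with 1 symbol per array (filled for A, open for B, grey for untreated, orange for BMP4). In every row both BMP4 arrays stand on 1 side of both untreated arrays, and TH, SOX14 and FAM163B have an arm left of the dotted line at 27.79, the amount added before log2.

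Contractile genes were called in a few cases, all higher with BMP4. Thick filament genes had 4 of 12 called higher, against 0.683% of all named genes, and 0 lower. Their median was 0.97, with 1.12 in the A arrays alone and 0.62 in the B arrays. Groups lay apart with BMP4 higher in 8 of the 12, against 20.8% of all named genes. MYH7B, a myosin heavy chain, gave 258 and 350 against 1134 and 914 (1.67 ± 0.25, adjusted p = 0.0185). MYL2, the ventricular regulatory light chain, gave 2406 and 3128 against 7200 and 6475 (1.31 ± 0.17). MYL4, the atrial essential light chain, gave 1430 and 1732 against 3689 and 3737 (1.22 ± 0.16). MYH15, the ventricular heavy chain of birds, gave 3560 and 5154 against 9888 and 8952 (1.13 ± 0.18). MYH7 was at −0.06 ± 0.35 and MYBPC3, a myosin binding protein, at 1.19 ± 0.30, neither past the test.

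Of 13 thin filament genes, cardiac actin ACTC1 was the 1 called, with 3536 and 5696 against 10101 and 9700 (1.14 ± 0.20, adjusted p = 0.0355). The list had a median of 0.76, with 1.06 in the A arrays alone and 0.45 in the B arrays. Over all named genes 1.02% were called. In 11 of the 13 the groups lay apart with BMP4 higher, against 20.8% of all named genes. Troponin T, TNNT2, was at 7190 and 11758 against 16198 and 16991 (0.85 ± 0.19, adjusted p = 0.0974). For these genes the 2 untreated arrays differed more than the BMP4 arrays, with B above A. For tropomyosin TPM1 the probe sets disagreed in size. The brightest was at 0.12, while dimmer probe sets of the gene were called at 1.56 ± 0.23 and 1.46 ± 0.21, a name outside the naming rule and chosen after its values were seen. Probe sets other than the brightest were likewise called for the giant sarcomere protein TTN (1.91 ± 0.34) and for NEBL (1.55 ± 0.28), again chosen after their values were seen.

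None of 16 Z-disc and sarcomere assembly genes was called in limma, where 1.02% of all named genes were called. The median was 0.86, with 1.07 in the A arrays alone and 0.48 in the B arrays. In 12 the groups lay apart with BMP4 higher, against 20.8% of all named genes. SMYD1, a methyltransferase needed for myofibril assembly, was nearest to the threshold at 1.495 ± 0.28 (adjusted p = 0.052). The cyclic AMP binding protein POPDC2 was at 1.40 ± 0.27, SMPX at 1.27 ± 0.25, actinin ACTN2 at 1.36 ± 0.28 and the LIM protein CSRP3 at 1.02 ± 0.21. Some called genes belong to none of the fixed lists and are given here as single genes. They include NEXN, a Z-disc protein mutated in cardiomyopathy, at 298 and 298 against 1172 and 698 (1.52 ± 0.27). Its 3 probe sets were all called, at 1.48 to 1.54. RBM24, a splicing regulator of heart and skeletal muscle, rose by 0.99 ± 0.16, POPDC3 by 1.57 ± 0.26, ADSS1, the muscle form of adenylosuccinate synthase, by 1.04 ± 0.19, and CSRP2, a LIM protein of muscle cells, by 1.32 ± 0.17. SNTB1, a syntrophin of the dystrophin complex, rose from 808 and 981 to 2956 and 2524 (1.59 ± 0.19). The 6 cardiomyocyte markers summed to 24461 and 35572 in untreated A and B and to 57630 and 55716 with BMP4, with 4 of 6 called higher.

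Among 11 cardiac calcium handling and channel genes, 2 were called, both higher, against 0.683% of all named genes called higher. These 2 encode the 2 parts of 1 potassium channel. ABCC9, the regulatory sulfonylurea receptor, gave 181 and 182 against 1775 and 1396, 7.65-fold higher (2.94 ± 0.25, adjusted p = 0.000873). KCNJ8, a pore subunit that pairs with it in ATP-sensitive potassium channels, gave 85.8 and 83.5 against 350 and 291 (1.63 ± 0.29, adjusted p = 0.0379). Both probe sets of ABCC9 were called. As the list was drawn up with earlier results in view, its count of calls is no independent evidence. The calcium pump ATP2A2 (0.41 ± 0.17), the exchanger SLC8A1 (0.78 ± 0.35) and the release channel RYR2 (−0.33 ± 0.34) did not pass the test.

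Cardiac transcription factors were called in 2 of 22 cases, both higher, where 0.683% of all named genes were called higher. GATA5 gave 8024 and 9260 against 14875 and 15369 (0.81 ± 0.12, adjusted p = 0.0178). PROX1, a homeobox gene of heart, liver and lymphatic development, gave 171 and 173 against 511 and 514 (1.44 ± 0.26). GATA4 (0.24 ± 0.38), GATA6 (0.27 ± 0.21), NKX2-5 (0.44 ± 0.24) and TBX5 (0.01 ± 0.37) did not pass the test. NKX2-5 overlapped between the arms, with 4049 and 6233 untreated against 5403 and 8681. HAND2 (0.85 ± 0.26), MYOCD, a coactivator of muscle genes (1.05 ± 0.30), and IRX4 (1.01 ± 0.27) were higher on both BMP4 arrays without passing.

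**Figure D3:**
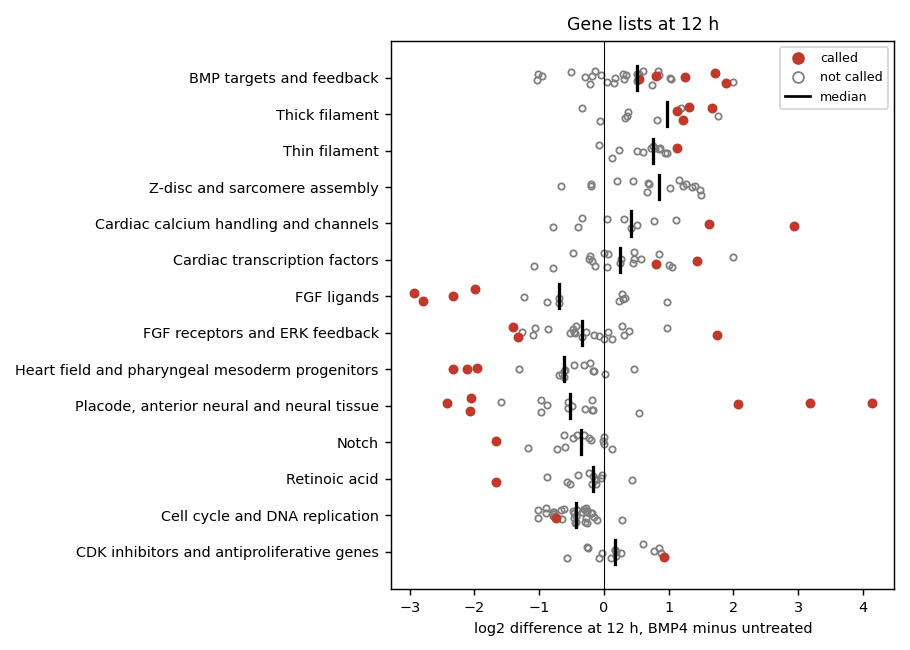
Log2 difference at 12 h (BMP4 minus untreated) for every tested member of 14 gene lists, with called genes in red, others as open circles and the list median as a bar. The thick filament median is at 0.97 and the FGF ligand median at −0.70, and the placode and neural list has called genes on both sides of 0.

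Of 16 tested progenitor genes of the heart field and pharyngeal mesoderm, 3 were called lower, against 0.341% of all named genes, and 0 higher. In 12 the groups lay apart with BMP4 lower, against 19.8% of all named genes, and the median was −0.61. Besides FGF8 they are EYA2, which works with homeobox factors in early precursors, and ISL2, a LIM homeobox gene. EYA2 gave 3171 and 3071 against 785 and 622, 4.33-fold lower (−2.12 ± 0.19, adjusted p = 0.000914). ISL2 gave 1240 and 798 against 206 and 269 (−1.96 ± 0.28). The heart field gene ISL1 was on the other side, with 7705 and 6589 against 10088 and 9566 (0.46 ± 0.13, adjusted p = 0.219). TBX1 (−0.66 ± 0.33), TCF21 (−0.31 ± 0.20), MYF5 (−0.62 ± 0.37) and FOXC2 (−1.31 ± 0.25, adjusted p = 0.055) did not pass the test. The 9 tested markers of splanchnic mesoderm and the heart field summed to 23393 and 26448 in untreated A and B. With BMP4 they summed to 34433 and 38047. GATA5, at 8024 and 9260 against 14875 and 15369, was the only marker called, while TBX1, TCF21 and MEF2C were below 0.

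Of 18 placode and neural genes, 3 were called lower and 3 higher, against 0.341% and 0.683% of all named genes. As the list was drawn up with earlier results in view, these counts are no independent evidence. GBX2, a homeobox gene of the hindbrain border and otic region, gave 9668 and 5824 against 1686 and 1892 (−2.05 ± 0.22, adjusted p = 0.00236). PAX6, a regulator of eye and forebrain, gave 668 and 866 against 112 and 226 (−2.06 ± 0.31). NTNG2, a membrane-bound netrin, gave 1144 and 650 against 138 and 137 (−2.43 ± 0.30), but a dimmer probe set of NTNG2 was at 0.59. NKX6-1, a homeobox gene of ventral neural tube and pancreas outside the list, fell from 277 and 270 to 51.9 and 62.6 (−1.83 ± 0.29). The other members of the list were mostly on the lower side, with 14 of 18 below 0, against 5911 of 11721 named genes. Among them DLX1 (−1.59 ± 0.38) and SOX3 (−0.97 ± 0.22) did not pass.

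TH, SOX14 and BHLHE22 were the 3 called higher in that list. TH, tyrosine hydroxylase, which makes the catecholamine precursor L-DOPA, had the highest difference of all called genes and gave 4.65 and 8.71 in untreated explants and 557 and 596 with BMP4 (adjusted p = 0.000781). Its untreated signals lie under the added 27.79, so its log2 difference of 4.13 ± 0.32 depends on that amount. SOX14, a transcription factor, gave 9.87 and 19.5 against 339 and 376 (3.19 ± 0.35), with the same limit. BHLHE22, a helix-loop-helix factor of neurons, gave 1029 and 1193 against 5057 and 4494 (2.08 ± 0.17, adjusted p = 0.000784). MAOA, which breaks down catecholamines, fell from 1533 and 1515 to 389 and 497 (−1.73 ± 0.22), and all of its 3 probe sets were below 0. The 6 neural markers summed to 6504 and 7060 in untreated explants and 7818 and 7523 with BMP4, with PAX6 alone called. NES accounts for the higher sum, at 4321 and 4773 against 6978 and 6351. The other 5 were at −2.06 (PAX6), −0.97 (SOX3), −0.88 (ELAVL4), −0.55 (TUBB3) and −0.17 (SOX1).

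Several of the called genes with the highest differences, most of them in no fixed list, have other roles. BRINP3 gave 76.1 and 42.8 against 1210 and 1378 (3.94 ± 0.30, adjusted p = 0.000781). RGS4, which damps G protein signaling, gave 318 and 378 against 4051 and 2334 (3.05 ± 0.28). LOC417741 had the smallest adjusted p of all, 4.1e-05, with 2215 and 2185 against 17022 and 16118 (2.90 ± 0.14), though its 3 probe sets ran from 0.55 to 2.90. EPAS1, a hypoxia-responsive transcription factor on the glycolysis and hypoxia list, gave 233 and 223 against 2256 and 1381 (2.81 ± 0.26). It was the 1 member called of 26 in that list, against 1.02% of all named genes. The list median was −0.03. The other probe set of EPAS1 was at 0.85 and was not called. CD36, a fatty acid transporter, gave 73.7 and 76.9 against 578 and 488 (2.44 ± 0.27), with both of its probe sets called. NR0B1, an orphan nuclear receptor of adrenal and gonad development, gave 145 and 207 against 963 and 985 (2.31 ± 0.26).

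Genes of mesenchyme and matrix were called in a few cases, beside 1.02% of all named genes. SOX9, a regulator of cartilage and heart valve cells, gave 29.7 and 29.6 against 240 and 502 (2.71 ± 0.36, adjusted p = 0.00995), the 2 BMP4 arrays differing by 0.98. PRRX1, a homeobox gene of limb and arch mesenchyme, gave 3630 and 4505 against 7279 and 8143 (0.92 ± 0.15). They were 2 of 16 in the neural crest and mesenchyme list, whose median was −0.02. Of 29 matrix and cushion genes, 2 were called, the hyaluronan receptor CD44 (2.46 ± 0.36, from 13.8 and 41.5 to 238 and 301) and the proteoglycan GPC3 (1.72 ± 0.17, from 1368 and 1530 to 4584 and 5098). CD44's untreated mean lies under the added amount, and its 4 probe sets ran from 0.32 to 2.46, with 1 called. Single called genes outside the lists include the chemokine CXCL12 (1.82 ± 0.19), carboxypeptidase CPM (1.84 ± 0.19), the heparan sulfate enzyme HS3ST2 (1.74 ± 0.21), the opioid precursor PENK (1.71 ± 0.28), the decoy receptor IL13RA2 (1.91 ± 0.26) and the secreted factor FIBIN (1.66 ± 0.26). Another probe set of IL13RA2 was at −0.19.

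Other signaling genes moved in both directions. Of 32 Wnt genes, RSPO3, which enhances Wnt signaling, fell from 1817 and 1134 to 251 and 180 (−2.61 ± 0.28, adjusted p = 0.00265), with both of its probe sets called. The receptor FZD8 fell by 1.17 ± 0.19, although another probe set of FZD8 was at 0.38, and the ligand WNT3A rose from 144 and 149 to 522 and 426 (1.52 ± 0.28). DACT2, a modulator of Wnt and TGF-beta signaling outside the list, fell from 1015 and 1130 to 433 and 398 (−1.31 ± 0.20). PDGFA, a growth factor for mesenchyme, fell from 5176 and 4198 to 1238 and 1062 (3.99-fold lower), and VEGFD, a ligand of lymphatic and blood vessel growth, from 4697 and 4396 to 1083 and 1242 (−1.94 ± 0.16). KIT, a receptor tyrosine kinase, gave 1121 and 876 against 304 and 343 (−1.54 ± 0.23). The axon guidance list had SEMA6D higher (1.62 ± 0.29) and NTNG2 lower among 29 genes. Over all named genes 1.02% were called.

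HES5, a target of Notch, was the 1 called of 14 Notch genes, with 305 and 465 against 84.6 and 118 (−1.66 ± 0.30, adjusted p = 0.0445). Of the 14, 12 were below 0, against 5911 of 11721 named genes, and the median was −0.36. CYP26C1, which degrades retinoic acid, was the 1 called of 14 retinoic acid genes, with 8472 and 7548 against 2710 and 2297 (−1.67 ± 0.15, adjusted p = 0.000914). Its 3 probe sets lay between −1.68 and −1.42. No member was called in limma among 8 hedgehog and 11 TGF-beta and activin genes, with medians of 0.07 and 0.14. Over all named genes 1.02% were called, so 0 in lists this small is no result about them.

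Cell cycle and DNA replication genes lay below 0 in 32 of 33 cases, against 5911 of 11721 named genes, with a median of −0.44. Over all named genes 1.02% were called. In this list 24 had groups apart with BMP4 lower, against 19.8% of all named genes, and 1 with BMP4 higher. RRM2, a subunit of the enzyme that makes deoxyribonucleotides, was the 1 called, at 12992 and 11680 against 7790 and 6998 (−0.74 ± 0.12, adjusted p = 0.0286). The helicase subunit MCM5 (−0.77 ± 0.14, adjusted p = 0.0508) and the factor E2F1 (−1.02 ± 0.20, adjusted p = 0.06) were next. Single genes outside the list that were called lower include the growth regulator MYCN, at 8891 and 7049 against 4438 and 3624 (−0.98 ± 0.16), ORC1, a subunit of the origin recognition complex (−1.25 ± 0.23), RBL1, a relative of the retinoblastoma protein (−1.07 ± 0.17), RCC1 (−1.44 ± 0.25) and NPM3 (−0.91 ± 0.14). RBL1 had 6 probe sets, 1 of them called, and the highest was at 0.05. BTG2, an inhibitor of proliferation, gave 4090 and 4507 against 8437 and 7877 (0.92 ± 0.14), the 1 called of 16 CDK inhibitors and antiproliferative genes.

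Calls in the lists of other tissues stand beside a share of 1.02% over all named genes. HHEX, a homeobox gene of foregut and blood vessel precursors, gave 3437 and 3580 against 8467 and 7984 (1.22 ± 0.14, adjusted p = 0.00312). It was the 1 called of 21 endoderm and epithelium genes, and with VEGFD it made up the 2 called among 23 endothelial genes. Medians were 0.06 and 0.03. In limma 0 of 8 blood, 9 smooth muscle, 7 skeletal muscle, 12 immediate early and heat shock, and 16 sterol and fatty acid genes were called. At a share of 1.02%, 0 calls in lists this small is no result about them. Summed signals of the marker sets were higher with BMP4 for endoderm and epithelium (53373 and 53676 against 61712 and 60765, 1 of 7 called) and for endothelium (6154 and 5185 against 7125 and 7460, 0 of 6 called). HHEX gave most of the first increase, while EPCAM (0.05), CLDN1 (0.04) and FOXA2 (0.09) were near 0 and SOX2 was at −0.97. The part of these cell types in the results was not tested. Single called genes outside the lists include UPK1B, PERPB and SPINK5. The uroplakin UPK1B gave 5462 and 5603 against 15179 and 15589 (1.47 ± 0.12, adjusted p = 0.000781), and PERPB, a desmosome-associated protein, gave 2821 and 2951 against 8500 and 6531 (1.36 ± 0.16). The protease inhibitor SPINK5 fell from 17516 and 9731 to 5049 and 4365 (−1.47 ± 0.23).

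Over all fixed lists together, 44 of 475 tested genes were called, or 9.26%. The lists were drawn up with earlier results in view, so neither this share nor the count in any single list is independent evidence. Among the higher called genes outside the lists were RHOB (0.67), ANXA2 (0.70), SGK1 (1.23), TMEM100 (1.16), FAM132A (1.15), CH25H (1.74), PADI1 (2.35), VGLL1 (2.11), SAMD11 (1.93), PKDCCB (1.78) and PRPS2 (1.93). Among the lower ones were ANO1, a calcium-activated chloride channel (−2.03 ± 0.27, from 1318 and 839 to 214 and 263), AADACL3C (−2.35 ± 0.21, from 1564 and 1276 to 246 and 264), FAM163B (−2.47 ± 0.37, its BMP4 mean under the added amount), ZPLD1 (−1.95), the lysosomal protease LGMN (−1.18), the RNA exosome subunit EXOSC2 (−1.71) and the neuropeptide NPY (−1.15). Of the called genes with several tested probe sets, 38 of 42 higher and 15 of 18 lower ones had 1 sign in all of them. A further 12 genes had a called probe set that was not their brightest, and 26 called probe sets carry no gene symbol.

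Some called genes are neighbours on the chicken assembly GRCg7b. All 120 have a place on it, and 8 pairs lie within 250000 bases of each other, 7 of them differing in the same direction. FGF19 (chromosome 5, 17116275 to 17121194), FGF3 (17174173 to 17180800) and ANO1 (17285877 to 17358984) follow each other, all lower with BMP4. FGF8 (chromosome 6, 23501490 to 23509886) lies 5046 bases from NPM3, both lower. ABCC9 (chromosome 1, 66924027 to 66999192) lies 7207 bases from KCNJ8, both higher. HDAC10 and LOC417741 are 1506 bases apart on chromosome 1, both higher (1.10 ± 0.20 and 2.90 ± 0.14). Of the 3 HDAC10 probe sets 1 was called, and the lowest was at −0.00037. CYP26C1 and HHEX on chromosome 6, 129106 bases apart, differed in opposite directions. No test was made of how often called genes adjoin.

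The arrays at 3 h and 24 h come from other samples, with their own untreated explants. They entered the filter on dim probe sets, the variance trend and the choice of each gene's brightest probe set. The 12 h difference itself was taken from the 12 h arrays alone. All 80 genes called higher at 12 h were also higher at 24 h, and 62 of the 80 (77.5%) at 3 h, where 50.05% and 48.1% of all named genes were above 0. Of the 40 called lower, 39 were lower at 24 h (97.5%) and 38 at 3 h (95%). NTNG2 was the exception at 24 h, and FGF8 (0.21) and ZPLD1 (1.36) those at 3 h. For the higher genes the median difference was 0.40 at 3 h, 1.59 at 12 h and 1.23 at 24 h. For the lower genes it was −0.43, −1.70 and −1.69. The 12 h medians are those of genes chosen for their size at 12 h, and the other times have 1 array per arm.

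**Figure D4:**
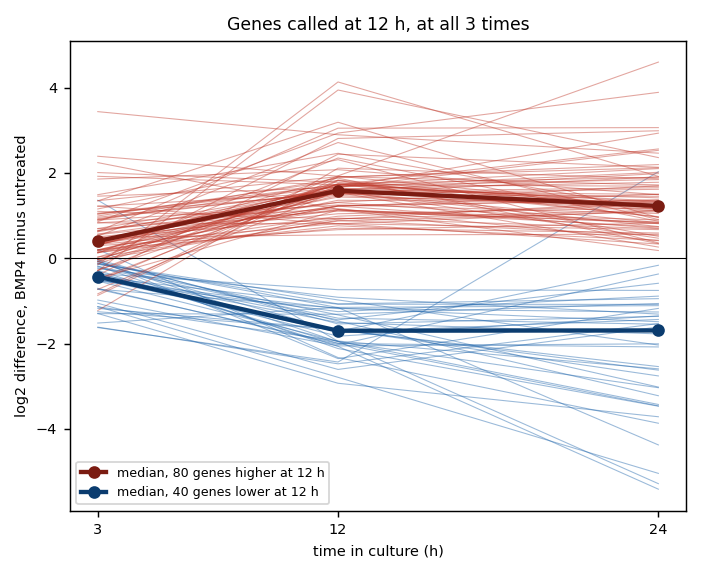
Log2 difference (BMP4 minus untreated) at 3, 12 and 24 h for the 80 genes called higher (red) and the 40 called lower (blue) at 12 h, with 1 thin line per gene and thick lines for the medians. The medians are 0.40, 1.59 and 1.23 for the higher genes and −0.43, −1.70 and −1.69 for the lower ones.

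Values at 3 h and 12 h are set side by side here, and no difference between genes is shown by them. MSX2 (1.92 at 3 h and 1.72 at 12 h), BHLHE22 (1.86 and 2.08), LOC417741 (3.44 and 2.90), PKDCCB (2.01 and 1.78) and DACT2 (−1.30 and −1.31) had like values at both times. TH (−0.15 and 4.13), BRINP3 (−0.29 and 3.94), EPAS1 (−0.08 and 2.81), FGFR3 (−0.03 and 1.74), FGF8 (0.21 and −2.33) and EYA2 (−0.18 and −2.12) were near 0 at 3 h. These pairs were chosen after their values were seen. Tested for a difference between the 12 h and the 3 h effect, limma called 0 of 28329 probe sets (0%), with a smallest adjusted p = 0.139 and 1340 probe sets at an unadjusted p under 0.05. Without BMP4 array B it called 2.

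From 12 h to 24 h, limma called a changed effect for 7 probe sets, or 0.0247%, with 1 array per arm at 24 h and its spread taken from the 12 h arrays. Without the trend or the filter it called 0. Those of genes called at 12 h were NTNG2 and NPY. NTNG2 was 2.43 lower with BMP4 at 12 h on the log2 scale and 2.03 higher at 24 h, where the signals were 77.4 untreated and 401 with BMP4 (change 4.46 ± 0.53, adjusted p = 0.0478). The NPY difference was −1.15 at 12 h and −4.37 at 24 h, with signals of 10287 untreated and 469 with BMP4 at 24 h (change −3.22 ± 0.30, adjusted p = 0.0221). The 5 others, TFAP2B, JMJD1C, C2orf40, LOC419390 and ALPPL, were not called at 12 h. The count was 19 without BMP4 array A, 16 without BMP4 array B, and 6 and 10 without untreated B and A.

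**Figure D5:**
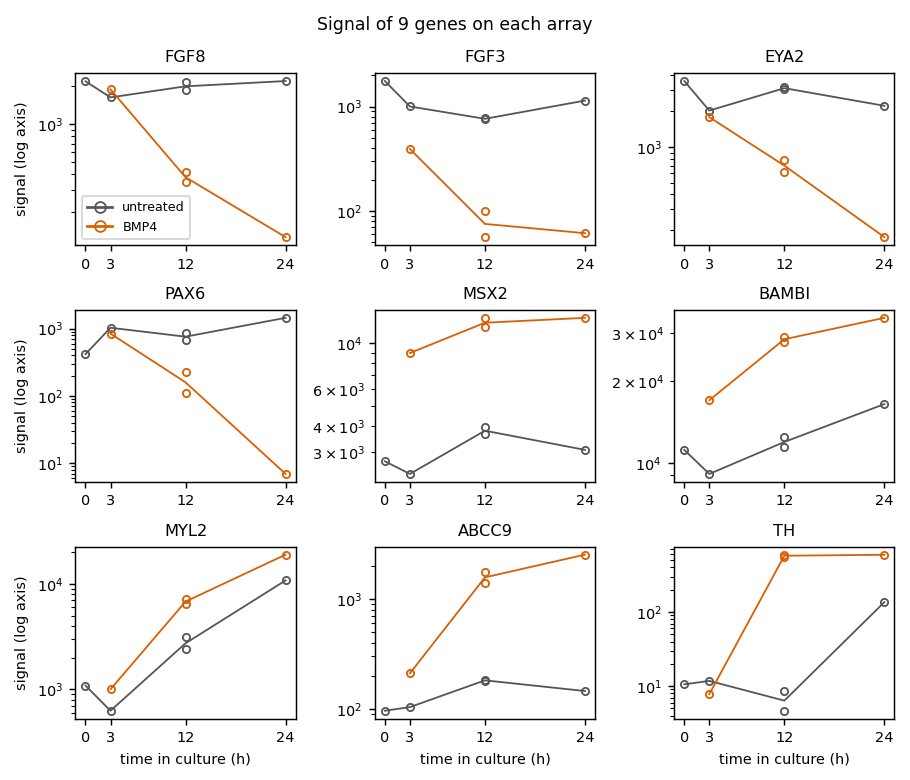
Signal on a log axis against time in culture for 9 called genes, with 1 circle per array (grey untreated, orange BMP4) and lines through the geometric means. FGF8 and EYA2 start together at 3 h and part by 12 h, MSX2 is apart at 3 h (8980 against 2348), and TH is at 7.79 with BMP4 at 3 h and at 557 and 596 at 12 h.

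The calls depend on the arrays as follows. Leaving out 1 array could not change the sign of a called gene, since its arms did not overlap. With any 1 of the 4 arrays left out, 99 to 187 probe sets were called, the lowest count being that without untreated array A (53 higher and 46 lower). Without BMP4 array A 71 were higher and 81 lower. Of the 120 genes, 47 were called in each of these 4 fits, and none changed sign. Those 47 include FGF3, FGF8, FGF18, FGF19, FGFR3, DUSP4, EYA2, PAX6, GBX2, MSX2, BAMBI, MYL2, MYL4, ABCC9, SOX9, EPAS1, RGS4, CYP26C1, RSPO3, PDGFA, VEGFD, HHEX and TH. SMAD6, BMPER, IL17RD, PROX1, KCNJ8, WNT3A and NEXN were among 35 genes called in at most 1 of the 4.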

How the data were processed

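The values the authors deposited are linear intensities of probe sets on 9 Affymetrix chicken arrays, 1 per sample. MAS5 is the program in the submitters' processing notes. The scaling target and any further normalization are not given in the sources used here. Quantiles of the 9 arrays are nearly the same, so the values were used as deposited. Before log2 was taken, 27.79 was added, which is the 25th percentile over the whole table. The 96 control probe sets were left out. A probe set was tested when it exceeded the 40th percentile of its array on at least 2 arrays.

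All 9 arrays were fitted with 7 group means in limma 3.58.1 (R 4.3.3), with a variance trend over signal and Benjamini-Hochberg adjustment over the 28329 probe sets. The 2 residual degrees of freedom come from the 12 h arrays, and single arrays at other times are assumed to vary like them. P-values are two-sided and measure only the spread between these samples, since the labels do not say whether A and B are separate cultures. The number of arrays limits the precision. The script was tested on simulated data.

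Genes were named from the array annotation, updated through RefSeq gene IDs (GRCg7b). Of the probe sets, 27168 carry 1 symbol, 177 several and 11094 none, and 26853 of the first matched an ID. For each gene the probe set brightest on average over the arrays was used. Genes named are called genes with groups that do not overlap, called list members and a fixed set of regulators. List members named without a call and outside that fixed set were chosen after their values were seen. A list member without its own symbol was matched by synonym. The comparison, lists and tests were chosen with earlier results of these data known. Alternatives were the trend, filter, pseudocount, normalization, arrays fitted, probe set means, threshold, each array left out and the letter as a block.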

Additional observations from a re-analysis of the deposited data

Results flagged for a closer look

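For 7 genes limma called a difference between the BMP4 effects at 12 h and 24 h (adjusted p = 0.0221 to 0.0478). The 24 h arms hold 1 array each, whose spread is assumed to be that of the 12 h arrays, and the count was 0 without the variance trend, without the filter and with the stricter filter. The change is the log2 difference at 24 h minus that at 12 h. It was 4.46 for NTNG2 and −3.22 for NPY, both called at 12 h. It was −3.46 for TFAP2B, with differences of 0.51 at 12 h and −2.95 at 24 h. For LOC419390 it was −3.42 (−1.11 and −4.54), for C2orf40 −3.17 (−0.35 and −3.52), for JMJD1C −2.68 (0.32 and −2.37) and for ALPPL 4.07 (0.20 and 4.27).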

How the results depend on the processing

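The sign of a called gene could change only with averaged probe sets or quantile normalization. Its arms did not overlap, and the other alternatives kept the order of its 12 h signals. Of the 120 genes called at 12 h, none changed sign under any alternative, and 40 kept their call in every alternative other than the variance without trend and the replicate block. The number of called probe sets, 174, all with A and B in agreement, fell to 0 without the variance trend and to 86 without the filter on dim probe sets, and was 323 at an adjusted p under 0.10. Called list genes, 44, fell to 0 without the trend and 28 without the filter. The 7 probe sets with a changed effect from 12 h to 24 h fell to 0 without the trend, without the filter and with the filter at the 60th percentile. Other pseudocounts, quantile normalization, the fit of the 12 h arrays only and the filter at the 60th percentile gave 149 to 195 calls. Averaging the probe sets of each gene gave 117 genes. Array quantiles were nearly the same beforehand, so quantile normalization could alter little. With each 12 h array left out in turn the ranges were 99 to 187 calls, 27 to 43 list genes, 0 to 2 changes from 3 h to 12 h and 6 to 19 from 12 h to 24 h. The cause of these shifts was not tested.

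Nothing in the labels says whether A and B mark a shared batch. The beta-actin ratio followed the letter in both arms, while the GAPDH ratio hardly differed between untreated A and B (1.57 and 1.54). Deviations of the same-lettered arrays from their group means correlated with r = 0.126 over probe sets, and the effect with r = 0.214 with letters matched and 0.0900 crossed. With the letter as a replicate block 1106 probe sets were called (1062 with A and B in agreement). The block gave 131 list genes, 136 changes from 3 h to 12 h and 309 from 12 h to 24 h. All 120 genes kept their call. The block uses up part of the 2 residual degrees of freedom of the main fit, so these counts are no added support.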
